A study of Mus musculus with 12 samples.

Results

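The 150 genes described here had a clearly higher signal in Bmi1 spheres, embryonic stem (ES) cells and 9 induced pluripotent stem (iPS) lines than in mouse embryonic fibroblasts (MEF). They were selected on measured values. A probe had to be well above background on all 11 arrays of spheres, ES and iPS lines, and its score was the lowest of those 11 log2 levels minus the level in MEF. The 150 autosomal genes with the highest scores, 1 probe per gene, were taken from 13779 genes that could be ranked, out of 41174 probes on the array. A level is the log2 processed signal minus the 75th percentile of its array, so 0 is a bright probe and a difference of 1 is a 2-fold difference.

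The 12 samples were each hybridised to 1 one-colour Agilent array. The spheres, on 1 array, were neural stem cell-like cells from embryonic fibroblasts transduced with Bmi1, a subunit of a Polycomb repressive complex. One of their label fields calls them iPS cells. The ES cells came from 129/Ola mice. All 9 iPS lines carried transduced Oct4: 2 lines also carried Bmi1, in embryonic fibroblasts, 1 came from embryonic fibroblasts treated with Shh, 2 after oxysterol, 2 after purmorphamine, and 2 from adult tail-tip fibroblasts given oxysterol. Shh is the hedgehog ligand, and oxysterol and purmorphamine are small molecules that activate the hedgehog pathway. MEF were unmodified embryonic fibroblasts on 1 array. ES, MEF, the spheres and the Shh line had no replicate, the labels do not name the vectors, and nothing says that numbered lines of a group came from separate animals, so p-values measure the spread between these lines only.

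Fibroblasts are mesenchymal cells that secrete matrix. Pluripotent cells divide quickly, grow as epithelium-like colonies and transcribe some genes that are otherwise known from germ cells. Neural stem cells grown as spheres also divide, and express Sox2 but not Oct4 or Nanog.

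The core factors were not among the 150. Pou5f1 (Oct4) was -5.51 in the spheres, 3.63 in ES, 3.41 to 4.13 in the iPS lines and -6.58 in MEF. Sox2 was not well above background in the spheres, at -9.09, against 3.72 in ES, 3.37 to 4.36 in the lines and -1.08 in MEF. Nanog was -4.63 in the spheres, 5.15 in ES, 3.96 to 5.43 in the lines and -3.88 in MEF. Of 12 pluripotency markers, 7 were well above background in the spheres, 12 in ES, 11 to 12 in the lines and 9 in MEF, and their summed signal (log2) was 0.35 in the spheres, 7.63 in ES, 7.43 to 7.91 in the lines and 0.63 in MEF. The neural stem name of the spheres also went against part of its markers: 9 of 12 were well above background in the spheres, with Sox2, Prom1 and Slc1a3 not, against 10 in ES and 10 in MEF. Their summed signal was 3.44 in the spheres, 4.51 in ES, 4.62 to 5.33 in the lines and 3.21 in MEF. Of 12 fibroblast markers, 10 were well above background in the spheres, with a summed signal of 6.36 in the spheres, 2.96 in ES, 2.77 to 5.68 in the lines and 7.22 in MEF. In these bulk samples, fewer cells of a type and less RNA per cell cannot be told apart.

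The transduced gene had probes that differed. One Bmi1 probe read -1.22 in the spheres and -6.18 in MEF, and the other -0.18 in the spheres and 0.45 in MEF. Neither probe met the rule, and the spheres were above every iPS line on both.

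The first 30 bases of a few 60-base probes show how far a member depends on the probe that stands for it. Acap1, a GTPase-activating protein for Arf6, had the highest score, 8.82. Its member probe lies at chr11:69963591-69964000 (mm7) and crosses an intron, and its other probe lies 2639 bases away, at chr11:69966639-69966698. Villin (Vil1), an actin-bundling protein of brush borders, is the contrasting case: its probes at chr1:74675061-74675120 and chr1:74675081-74675140 share 40 bases, shown in capitals as far as printed.
Acap1 member probe: tctgactatcgcaatggaaaccactaatgc
Acap1 other probe: ggcttcaccaccagtctgaagtgtatggag
Vil1 member probe: caccaggaacatgggtttgcTACGTGAAGT
Vil1 other probe: TACGTGAAGTCCAATCAGAAGCCAATAGGT

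MEF signal was mostly at background. Of the 150 members, 118 were not well above background in MEF and 32 were. Where MEF was dim, a fold is given as a lower bound, against the higher of the MEF value and the floor of the MEF array (-6.77, the lowest signal of any probe well above background there). Measured in that way, the lowest of the 11 arrays exceeded MEF by 1.74 to 8.15 log2 units, with a median of 3.83, and by at least 2 log2 units in 144 members. These differences chose the members, so they carry no test.

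**Figure D1:**
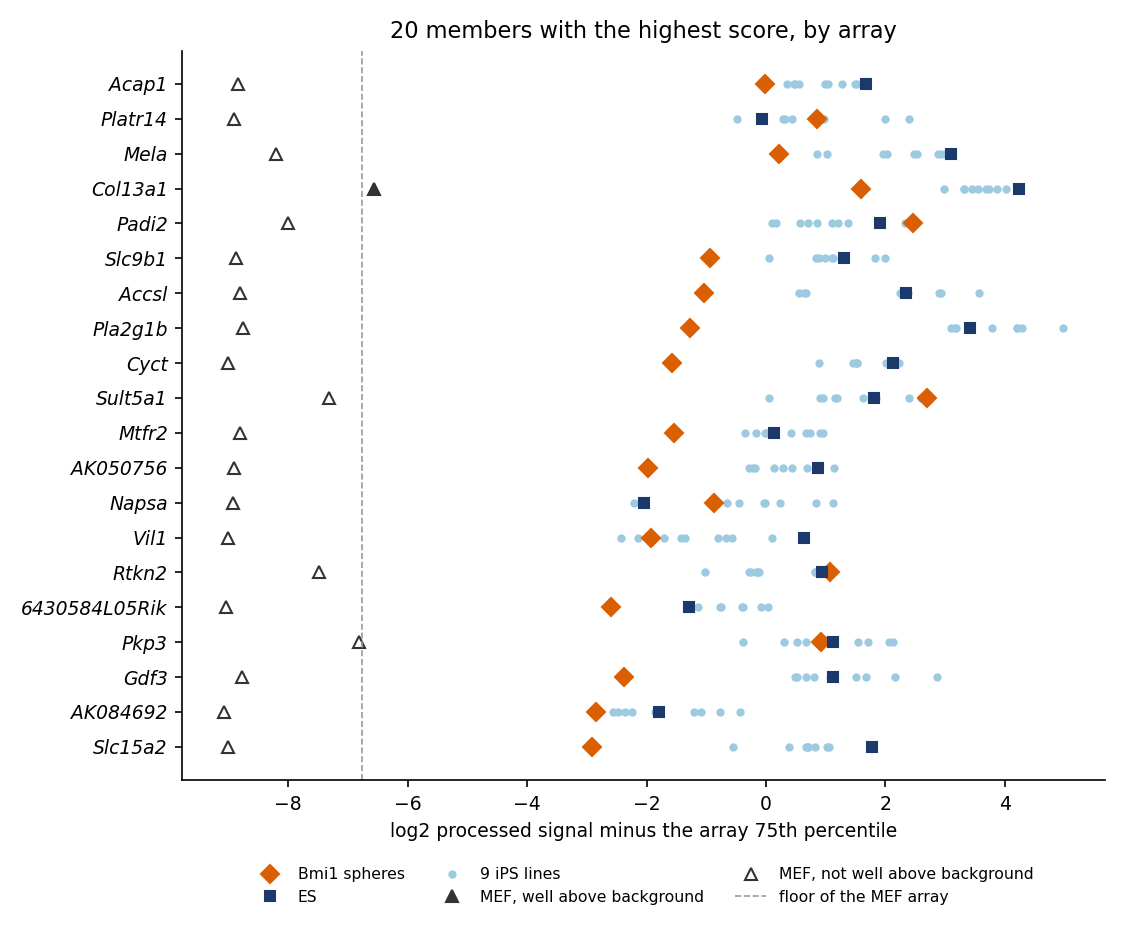
Levels (log2 processed signal minus the array 75th percentile, x axis) of the 20 members with the highest score, 1 gene per row: spheres as diamonds, ES as squares, 9 iPS lines as small circles and MEF as triangles, open where not well above background. The dashed line is the floor of the MEF array at -6.77, and only Col13a1 of these 20 was well above background in MEF.

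Acap1 was -0.02 in the spheres, 1.68 in ES, 0.36, 1.00 and 1.52 (lowest, median and highest) in the iPS lines and -8.84, at background, in MEF. The spheres were at least 108-fold, ES at least 350-fold and the mean of the lines at least 205-fold above MEF. Col13a1, a transmembrane collagen, was 1.59 in the spheres, 4.24 in ES, 2.99, 3.55 and 4.01 in the lines and -6.56 in MEF, where it was well above background. On these probes all 11 arrays stood far above MEF for both genes, with the spheres lowest. Another Col13a1 probe read -4.26 in the spheres, -4.34 in ES, -4.08 on average in the lines and -4.75 in MEF. It was well above background in MEF and on 9 of the 11 arrays. The other Acap1 probe, given below, was higher in MEF than in ES or the mean of the lines.

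Padi2, which converts arginine to citrulline in proteins, and Sult5a1, a sulfotransferase, were highest in the spheres. Padi2 was 2.47 in the spheres, 1.91 in ES, 0.10, 0.86 and 2.33 in the lines and -8.0 in MEF, at least 603-fold higher in the spheres than in MEF. Sult5a1 was 2.70 in the spheres, 1.81 in ES, 0.06, 1.19 and 2.59 in the lines and -7.32 in MEF. Neither difference between spheres and lines passed the test given below (adjusted p = 0.255 and 0.412). Other members near the top were Mela (deposited as melanoma antigen), Accsl (related to aminocyclopropane carboxylate synthase), Mtfr2 (a regulator of mitochondrial division), Napsa (an aspartic protease), Rtkn2 and the transcripts AK050756, 6430584L05Rik and AK084692, which have only database names.

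Genes known from the early embryo and pluripotent cells made a first group. This group and the other groups of roles below were put together after the values were seen, and cover 65 of the 150 members. Platr14, a pluripotency-associated noncoding RNA, was 0.86 in the spheres, -0.07 in ES, -0.48, 0.87 and 2.39 in the lines and -8.91 in MEF, so the spheres lay inside the range of the lines. Platr26, of the same class, was 2.89 in the spheres, 3.16 in ES, 1.32, 2.21 and 3.20 in the lines and -4.50 in MEF. Polr3g, a subunit of RNA polymerase III, was nearly level over the 11 arrays on its member probe. It was -0.70 in the spheres, -0.75 in ES, -1.48, -0.80 and -0.21 in the lines and -6.26 in MEF. Another Polr3g probe read 0.77 in the spheres, 1.04 in ES, 0.93 on average in the lines and -2.82 in MEF. A further one was not level, at -1.16 in the spheres, -4.87 in ES, -3.87 on average in the lines and -5.51 in MEF. Both were well above background on all 11 arrays.

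Gdf3, a TGF-beta family ligand, and Alpl, the alkaline phosphatase used as a stain for pluripotent colonies, were much lower in the spheres than in pluripotent cells. Gdf3 was -2.38 in the spheres, 1.12 in ES, 0.48, 1.07 and 2.87 in the lines and -8.77 in MEF. Alpl was -2.85 in the spheres, 2.20 in ES, 0.77, 1.60 and 2.42 in the lines and -8.75 in MEF. For both genes the spheres were below every line, yet at least 21.0-fold and 15.1-fold above MEF. Lin28b is an RNA-binding protein that blocks let-7 processing. Its member probe was dim on all arrays: -3.97 in the spheres, -4.49 in ES, -4.05, -3.57 and -2.84 in the lines. It was -8.92 in MEF. Other Lin28b probes were brighter in ES and the lines than in the spheres. One read -6.94 in the spheres, -2.91 in ES, -1.74 on average in the lines and -6.65 in MEF, so the spheres were not above MEF. It was well above background on 10 of the 11 arrays. Another, well above background on all 11, read -4.79 in the spheres and -6.65 in MEF. Its difference of spheres minus the mean of the lines was -2.89. Prtg (protogenin) was 1.03 in the spheres, 1.89 in ES, 1.71, 2.43 and 3.28 in the lines and -3.21 in MEF. Tcstv1, a gene of the earliest cleavage stages with near-identical copies, was -3.56 in the spheres, -2.39 in ES and -3.48 to -1.02 in the lines, against -8.85 in MEF.

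Epithelial and adhesion genes formed the second group. Pkp3 (plakophilin 3), a desmosomal plaque protein, was 0.92 in the spheres, 1.13 in ES, -0.38, 0.83 and 2.13 in the lines and -6.81 in MEF. Krt8, a keratin of simple epithelia, was -1.58 in the spheres, -3.05 in ES, -2.62, -0.87 and 1.20 in the lines and -8.61 in MEF, with ES the lowest of the 11. Cldn6, a claudin of tight junctions, was 0.57 in the spheres, 4.58 in ES, 1.96, 3.67 and 4.37 in the lines and -4.02 in MEF. Fermt1 (kindlin 1), which activates integrins in epithelia, ran the other way, at 1.81 in the spheres, -2.48 in ES, -3.50, -1.75 and -1.49 in the lines and -8.94 in MEF. Cdh1, the cadherin that holds epithelial cells together, was not a member, being -6.22 in the spheres against 2.37 in ES and -8.83 in MEF. The spheres thus held the signal of some epithelial genes and not of others. The 10 epithelial markers summed to 2.18 in the spheres, 5.56 in ES, 4.31 to 5.98 in the lines and 0.55 in MEF (log2), and 2 of them, Krt8 and Cldn6, were members.

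Genes named for germ cells made a group of 9 members. Smc1b, the cohesin subunit of meiotic chromosomes, was 0.69 in the spheres, 0.22 in ES, -2.17, -0.27 and 1.11 in the lines and -7.31 in MEF. Zcwpw1, a reader of histone methylation needed for meiotic recombination, was -0.56 in the spheres, -0.61 in ES, -0.27, 0.24 and 1.53 in the lines and -4.99 in MEF. Sycp1, which joins paired meiotic chromosomes, was -2.61 in the spheres, -1.22 in ES, -2.18, -1.14 and -0.32 in the lines and -6.54 in MEF. Sycp1-ps1 is a pseudogene of it and the 2 are uncertain, since their probes may share transcripts. Cyct, the testis cytochrome c, was -1.58 in the spheres, 2.13 in ES, 0.90, 1.53 and 2.22 in the lines and -9.01 in MEF. Zp3, a coat protein of the egg, was -2.56 in the spheres, -0.72 in ES, -0.17, 1.10 and 1.96 in the lines and -6.79 in MEF, where ES was also below every line.

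Genes of DNA replication, repair and cell division made a group of 9 members. None of them passed the test of spheres against lines below. That test called 2.41% of all probes higher and 4.83% lower, so no call in so small a group says nothing particular about it. Chek2, a checkpoint kinase, was -2.78 in the spheres, -2.31 in ES, -3.96, -3.03 and -1.52 in the lines and -7.92 in MEF. Orc1, a subunit of the origin recognition complex, was -2.56 in the spheres, -1.33 in ES, -3.21, -2.39 and -1.18 in the lines and -7.18 in MEF. The spheres lay within the range of the lines for both.

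Of the blood cell group, Card10, a scaffold protein, was -0.76 in the spheres, 2.76 in ES, 1.49, 1.92 and 2.62 in the lines and -5.23 in MEF. Map4k1, a kinase of lymphocytes, was -2.28 in the spheres, 0.25 in ES, -2.57, -0.65 and 1.25 in the lines and -7.33 in MEF. No blood marker was a member. The 6 blood markers summed to 2.90 in the spheres, 3.23 in ES, 3.07 to 4.02 in the lines and 1.70 in MEF (log2); their part in these levels was not tested. Among enzymes, Gcat, which breaks down threonine to glycine, was 1.09 in the spheres, 0.86 in ES, -0.53, 0.46 and 1.64 in the lines and -5.10 in MEF. Pla2g5, a secreted phospholipase A2, was 4.42 in the spheres, 2.20 in ES, 1.75, 2.44 and 2.95 in the lines and -4.28 in MEF, above every line in the spheres. Among receptors, Erbb3, a receptor tyrosine kinase, was -0.94 in the spheres, 0.51 in ES, -0.83, 0.26 and 1.42 in the lines and -5.25 in MEF. Its other probes were well above background on 3 to 10 of the 11 arrays. Spheres minus the mean of the lines was 0.78, 1.76, 0.59 and -1.31 on these, and their scores were -0.06, 0.66, 1.97 and -4.23.

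Slc9b1, a sodium-proton exchanger known from sperm, was -0.94 in the spheres, 1.30 in ES, 0.04, 1.11 and 1.99 in the lines and -8.88 in MEF. Slc15a2, which carries small peptides, was -2.92 in the spheres, 1.78 in ES, -0.55, 0.70 and 1.76 in the lines and -9.01 in MEF. In both, all 9 lines were above the spheres. Aqp3, a water and glycerol channel of epithelia, was well above background in every sample, at 2.41 in the spheres, 5.03 in ES, 4.50, 4.84 and 5.25 in the lines and -1.51 in MEF. Vil1 was -1.92 in the spheres, 0.64 in ES, -2.43, -1.36 and 0.10 in the lines and -9.01 in MEF, so the spheres lay inside the lines. Nusap1, a spindle protein, was -1.12 in the spheres, -1.29 in ES, -3.00, -1.26 and -0.03 in the lines and -8.66 in MEF, again with the spheres inside the lines. Pla2g1b, the pancreatic phospholipase A2, was -1.27 in the spheres, 3.42 in ES, 3.09, 3.78 and 4.97 in the lines and -8.75 in MEF, far below every line in the spheres.

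The spheres set the limit of membership more often than any other array. They held the lowest of the 11 values in 74 members, ES in 8 and the lines together in 68. Among the lines this ran from 1 member in purmorphamine line 1 to 15 in tail-tip line 2. When the rule was applied without the spheres, 42 of the 150 members stayed in the top 150, against 146 without ES and 137 to 148 without any single line.

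**Figure D2:**
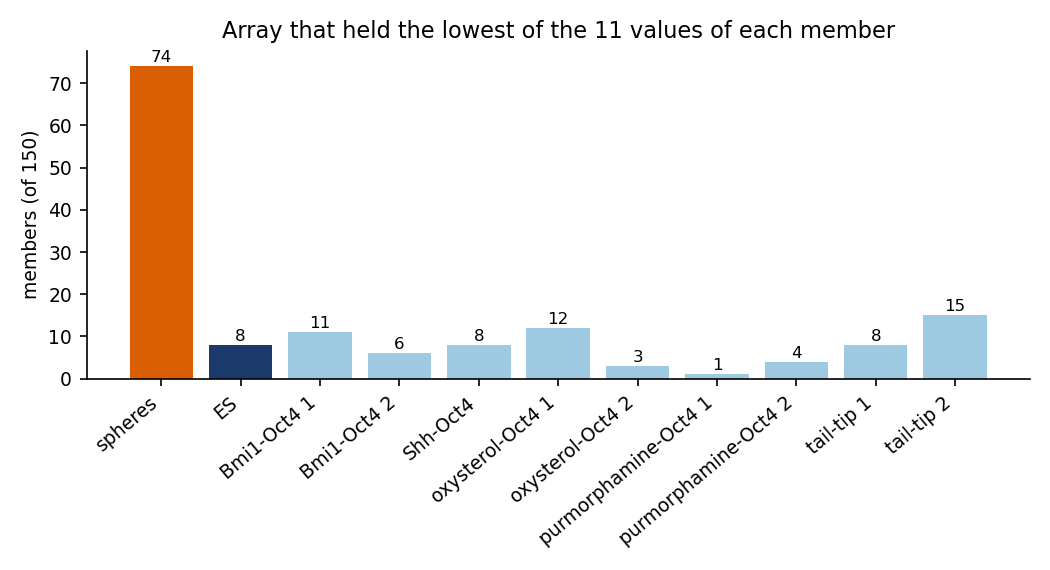
Number of the 150 members (y axis) for which each of the 11 arrays held the lowest level. The spheres held it for 74 members, ES for 8 and the 9 iPS lines for 1 to 15 each.

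As a description of values that the rule itself used, the sphere levels were below every iPS line in 76 members (50.7%), inside their range in 63 and above every line in 11. Among all 13779 ranked genes the spheres were below every line in 24.3% and above every line in 20.5%. The 11 above every line were Padi2, Sult5a1, Rtkn2, Pla2g5, Itch, Fermt1, Dnajc22, 1700109H08Rik, Actl10, Zfp94 and C130071C03Rik. ES lay inside the range of the lines in 122 members (81.3%), and in 81.1% of all ranked genes.

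The spheres were compared with the 9 lines by limma's moderated test, fitted on all 37765 probes well above background on at least 1 array, with Benjamini-Hochberg adjustment at 0.05. The sphere, ES and line values compared here and in the next comparisons are those whose lowest chose the members, so counts and medians over the members describe the chosen genes and carry no weight beyond that. Of all probes tested, 2.41% were higher and 4.83% lower in the spheres, and of the ranked genes 1.87% were higher and 5.91% lower. Of the 150 members, 2 rose and 26 fell (1.33% and 17.3%), and 61 (40.7%) had an unadjusted p under 0.05, against 21.0% of all probes. The median difference was -1.31 over the members and 0.05 over all probes. The spread was that of the other classes, since the spheres had 1 array. Compared within the slide of the spheres (3 lines), 5 of the 28 passed, all lower: AK014119, Ccdc88c, Hook1, Scn8a and Fam25c. The count was 22 with slide as a fixed block. These 2 fits left 2 and 6 residual degrees of freedom, against 8 in the main fit. Both also called fewer probes over the whole array, in each direction. The part of slide in the lower counts was not tested.

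The 2 that rose were Fermt1, by 4.03 log2 units (SE 0.80, 16.4-fold, adjusted p = 0.0129, limma), and Pla2g5, by 2.12 (SE 0.52, adjusted p = 0.0356). Neither passed within the slide of the spheres.

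The 26 that fell were led by AK014119, a transcript known by its database name, with -3.61 in the spheres, 3.82 in ES, 3.17, 3.50 and 3.91 in the lines and -7.61 in MEF. Its difference was -7.16 (SE 0.40, adjusted p = 2.4e-06, limma). Ccdc88c (Daple), a regulator of Wnt signalling, was -1.16 in the spheres, 5.13 in ES, 4.61, 4.97 and 5.32 in the lines and -6.56 in MEF, a difference of -6.12 (SE 0.40, adjusted p = 6.07e-06). Hook1, which links cargo to microtubule motors, was -2.96 in the spheres, 3.07 in ES, 2.66, 3.09 and 3.74 in the lines and -8.50 in MEF, a difference of -6.13 (SE 0.45, adjusted p = 1.45e-05). Scn8a, a voltage-gated sodium channel, was -3.95 in the spheres, 3.30 in ES, 0.86, 2.13 and 2.95 in the lines and -8.76 in MEF. In all 4 genes the spheres stood between MEF and every line, and the lines lay within 1.07 log2 units of each other for all but Scn8a. Ccdc88c was saturated on 2 arrays, and Hook1 had 3 other probes. Spheres minus the mean of the lines was -5.69, -3.16 and -0.01 on these, and the probe at -3.16, the only one well above background on all 11 arrays, was no higher in the spheres than in MEF.

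Others that fell were Fam183b (difference -5.25), Fam25c (-5.15), Pla2g1b (-5.08), the membrane protease Hpn (-4.75), Palm3 (-4.63), Alpl (-4.58), Mia (-4.42), the cytokine Ltb (-4.29), Gstp3 (-4.18), Hsd17b14 (-4.15), Gdf3 (-3.68), Zp3 (-3.67) and the peptide carrier Slc15a2 (-3.65). The remaining 9 were Camta1 (-3.57), the dynein heavy chain Dnah8 (-3.33), Cyct (-3.28), Card10 (-2.76), St6galnac2 (-2.64), the water channel Aqp3 (-2.44), Ralgps2 (-2.35), AK050756 (-2.28) and Col13a1 (-1.95). Ralgps2 and St6galnac2 were near the threshold (adjusted p = 0.0462 and 0.0464, limma). Gstp3 has near-identical relatives and its value is uncertain. On other probes, spheres minus the mean of the lines was 1.22 for Scn8a, 0.21 for Slc15a2 and 1.39 and 3.23 for St6galnac2. Those probes were well above background on 3 to 5 of the 11 arrays. Camta1 had 1.06 and -2.96 on probes well above background on all 11, and Col13a1 had -0.18. Every other probe of Ccdc88c, Hpn, Mia, Zp3, Dnah8, Card10 and Ralgps2 was lower in the spheres than in the mean of the lines.

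**Figure D3:**
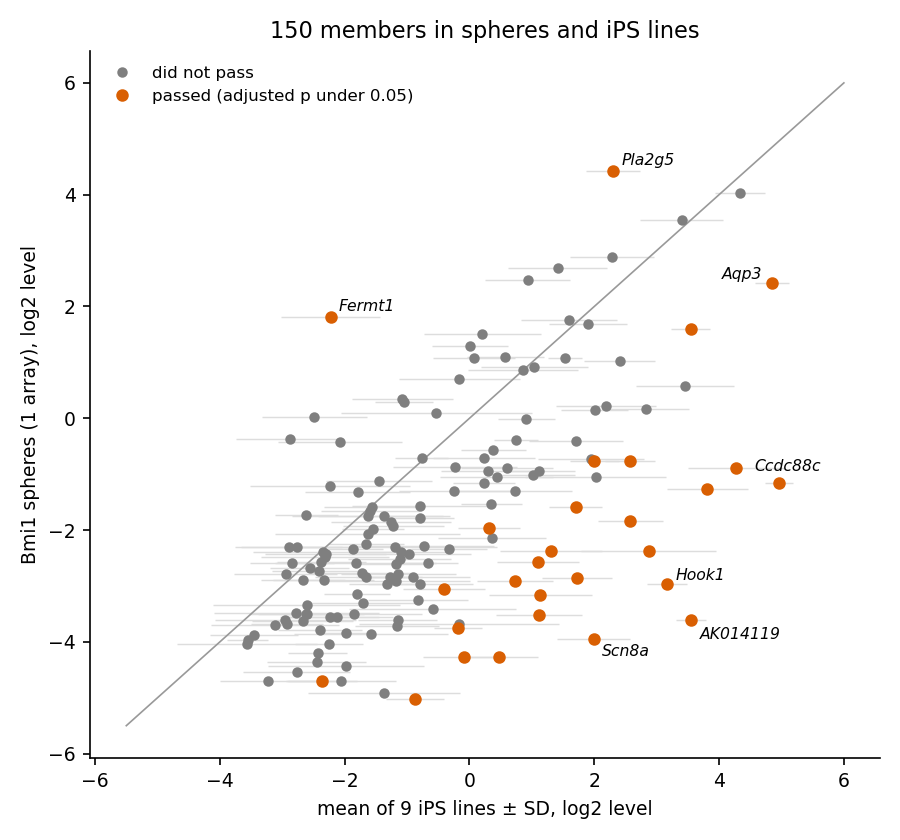
Level in the spheres (1 array, y axis) against the mean of 9 iPS lines with SD as horizontal bars (x axis), both log2, for the 150 members. Of these 28 passed the test, in orange: Fermt1 and Pla2g5 above the line of equal levels and 26 below it, with AK014119 at -3.61 in the spheres and 3.55 in the lines.

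Spheres against ES, 1 array against 1, had no test. Of 34248 probes well above background in either, 32.1% were at least 2-fold higher and 23.1% at least 2-fold lower in the spheres. Of the members, 15 were at least 2-fold higher, 87 at least 2-fold lower and 48 within 2-fold, with a median difference of -1.30.

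The spheres share Bmi1 with the Bmi1-Oct4 lines, and this comparison sets them against iPS lines that carried Oct4 as well. Oct4 itself and the iPS state cannot be told apart in it. Of 37757 probes, 1.41% were higher and 2.66% lower in the spheres (limma, 8-group model). Of the members, Fermt1 rose by 5.09 (SE 0.75, adjusted p = 0.0191) and 18 fell. This comparison shares its samples with the one against the 9 lines. Cldn6 fell by 3.07 (SE 0.53, adjusted p = 0.0336) and had an adjusted p of 0.0586 against the 9 lines. Spheres and Bmi1-Oct4 lines lay on different slides, so slide and group cannot be told apart here. The count fell to 7 without Bmi1-Oct4 line 1, 4 without line 2, 6 without either purmorphamine line and 11 without either tail-tip line.

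Between the iPS lines and ES no member passed (limma). Of 37742 probes, 0.0265% were called, and 7 members (4.67%) had an unadjusted p under 0.05, as did 4.53% of all probes. The largest differences of lines minus ES were in TC1487280 (3.02, SE 0.83, adjusted p = 0.483) and Ltb (2.89, SE 0.83, adjusted p = 0.559). Ltb was -1.76 in ES against 0.92 at the median of the lines, and below every line. The median difference over the members was -0.13. The median SE of a member's difference was 0.79, with 1 ES array.

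Among iPS groups no member passed either. Bmi1-Oct4 lines minus the 5 lines made with hedgehog activators gave 0% of 37713 probes called and 5 members (3.33%) with an unadjusted p under 0.05, against 10.4% of all probes (limma). The smallest adjusted p among the members was 0.281, for Melk, a mitotic kinase, at -1.48 (SE 0.46). Tail-tip minus embryonic oxysterol lines gave 0% of 37779 probes called and 15 members (10%) with an unadjusted p under 0.05, against 6.54% of all probes. The transcript AK043005 had the smallest adjusted p among the members, 0.382, at -2.91 (SE 0.46). The median difference over the members was -0.01 and -0.32 in these 2 comparisons. Slide and group cannot be told apart for the Bmi1-Oct4 comparison. Both tail-tip lines lay on slide 3 and both embryonic oxysterol lines on slide 2, and of all groups only the purmorphamine lines lay on both. The tail-tip comparison is thus also largely 1 of slides. With slide as a fixed block it called 0 probes as well.

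The lines varied more for some members than for others. The SD over the 9 lines ran from 0.23 to 1.63, with a median of 0.77, against 0.54 over the ranked genes. Among the lowest were Ccdc88c, AK014119, Aqp3 and Hook1 (0.23 to 0.32), and it was highest for Art5, Gm5662, Tmem131l, ENSMUST00000064646 and Nos1 (1.48 to 1.63). Art5 ran from -4.49 to 1.33 and Nos1, the neuronal nitric oxide synthase, from -4.63 to 0.90. The 3 lines with the most fibroblast marker signal, tail-tip line 2 (5.68), purmorphamine line 2 (5.14) and oxysterol line 1 (4.0), held the lowest value in 15, 4 and 12 members; the part of fibroblast RNA in this was not tested. The median level of the members was -0.87, -0.71 and -0.29 in these lines. Over all 9 lines, these 3 included, it ran from -0.92 to -0.29, with oxysterol line 1 the highest.

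The rule kept the highest-scoring probe of each gene, so the other probes of a member score lower by construction, and they were hybridised to the same RNA. Of the 150 members, 84 had 1 probe only and 66 had others. Another probe was well above background on all 11 arrays in 48 of these, and its best score was at least 1 in 28, between 0 and 1 in 7 and below 0 in 13. The best other probe overlapped the member probe in 5 of the 48, among them the 3 highest scores: Vil1 (5.88), Tcstv1 (5.25) and Dmtn (4.85). Slc9b1 scored 4.57 and Rtkn2 4.15 on probes that did not overlap. Acap1 scored -5.14 on the other probe printed above, which read 4.19 in the spheres, -1.64 in ES, -0.02 on average in the lines and 3.21 in MEF. The remaining 12 with a score below 0 were Ccdc73 (-3.66), Ppm1d (-1.14), Plbd2 (-0.86), Nsa2 (-0.83), Acsl6 (-0.58), Kirrel2 (-0.50), Anapc15 (-0.48), Hook1 (-0.46), Gm5662, Zswim5, Dlgap2 and Zfp367 (-0.34 to -0.08). In these 13 genes no other probe well above background on all 11 arrays scored above 0. Nusap1 (0.46) was also low on its other probe.

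**Figure D4:**
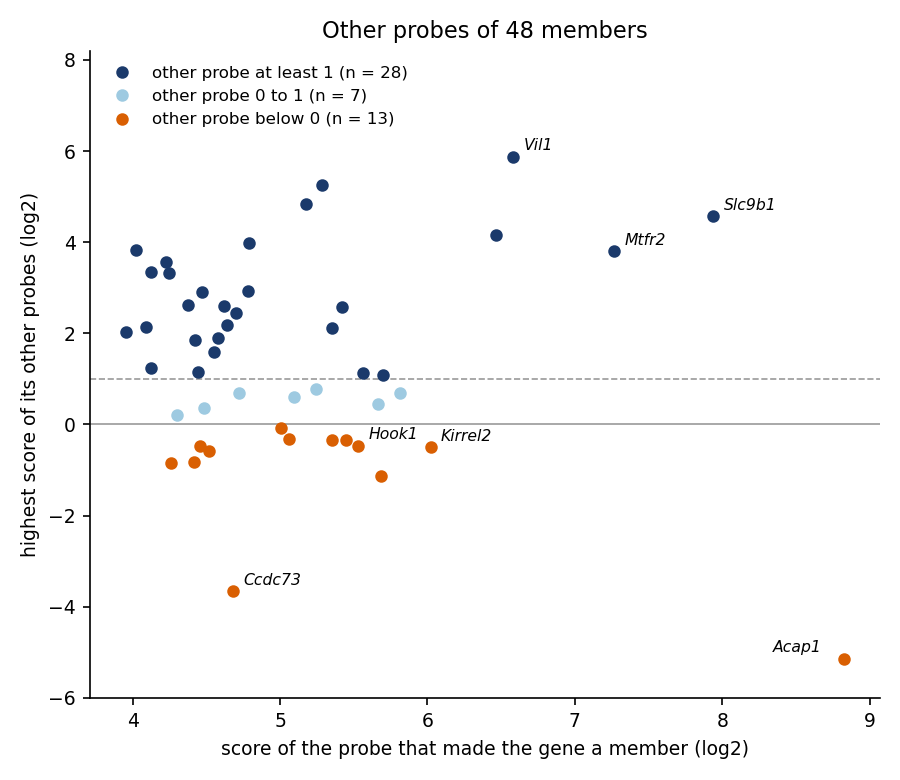
Score of the probe that made a gene a member (x axis) against the highest score of its other probes well above background on all 11 arrays (y axis), both log2, for 48 members. The other probe scored at least 1 in 28, 0 to 1 in 7 and below 0 in 13, with Vil1 at 5.88 and Acap1 at -5.14.

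Members just inside the threshold were Ltb, Sycp1, Mfng (a glycosyltransferase that modifies Notch), Aqp3 and Dnah8, with scores of 3.93, 3.93, 3.93, 3.92 and 3.92. Just outside were Dnmt3b, the de novo DNA methyltransferase (3.91), 5730410E19Rik (3.89), Tmem209 (3.88), Pde2a (3.88) and Cyp21a1 (3.87). Scores ran on across the threshold without a gap.

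The 29 gene lists held 14 members in 9 lists. Over all ranked genes 11.2% had a score of at least 1, on the best probe of each gene. In the germline list 10 of 15 ranked genes did, in the pluripotency list 13 of 25, in DNA repair 13 of 29, in the epithelial list 9 of 24 and in mitosis 15 of 41. Median scores were 1.84, 1.06, 0.94, 0.07 and 0.66 in these lists and -0.53 over all ranked genes. The score is the value that chose the members, so these shares and medians carry no test. Only autosomal genes well above background on all 11 arrays were ranked, 15 of 30 measured germline and 25 of 36 measured pluripotency genes. A score of at least 1 can rest on a dim signal: Pou5f1 scored 1.07 at -5.51 in the spheres. No gene of the sterol synthesis (25 ranked), mitochondrial (28), imprinted (18), p53 target (19) or interferon-stimulated (8) lists reached 1. Members came from germline (Smc1b, Zcwpw1, Sycp1), epithelial (Pkp3, Krt8, Cldn6), pluripotency (Gdf3, Lin28b), DNA repair (such as Chek2), DNA replication (Orc1), serine and glycine metabolism (Gcat), RNA binding (Lin28b), Notch (Mfng) and receptor tyrosine kinase (Erbb3) lists. The neural stem list had none, and 1 of its 16 ranked genes reached 1.

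**Figure D5:**
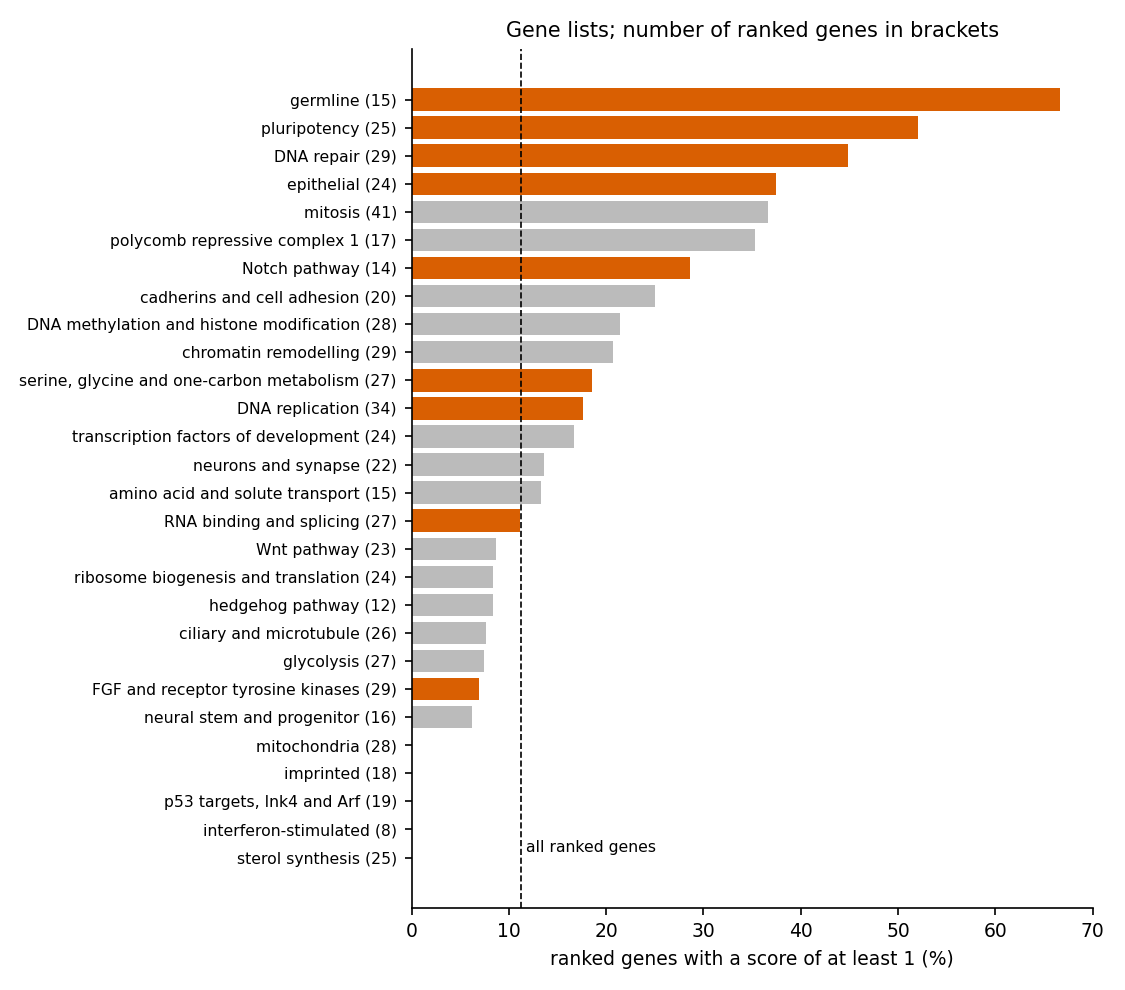
Share of the ranked genes of each gene list with a score of at least 1 (x axis, percent), for lists with 5 or more ranked genes, with the number of ranked genes in brackets. Orange bars hold at least 1 member, and the dashed line is the share over all ranked genes, 11.2%.

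The same lists showed where spheres and pluripotent cells parted. In spheres minus iPS lines, 24 of 36 measured pluripotency genes and 18 of 30 germline genes fell and none rose (limma), with median differences of -5.88 and -4.98. In DNA repair 5 of 32 fell and none rose, and in mitosis none of 44 rose or fell, with medians of -0.93 and -0.40. Over all 25415 genes 1374 fell and 615 rose, with a median of 0.03.

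Members lay on 18 of the 19 autosomes. Chromosome 7 held 21 (14.0%, against 8.04% of ranked genes) and chromosome 15 held 12 (8.0%, against 4.23%). Some members had probes within 100 kb of each other. The Ryr1 and Map4k1 probes are 1.5 kb apart, and Ryr1 is the calcium release channel of muscle. Further pairs were Napepld with TC1503622 (12 kb) and Card10 with Mfng (19.1 kb). Of the 150 members, 110 are protein-coding and 6 are long noncoding RNAs in the RefSeq table, and 33 keep only the deposited name.

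A RefSeq promoter (GRCm38.p6) was matched for 90 members, and the 250 bases before the start were searched on both strands. GC boxes (GGGCGG) were in 53.3% of the members' promoters, 57.7% of those of ranked genes and 32.9% of all. CCAAT was in 36.7%, 36.3% and 34.5%. E2F-type motifs (TTTGGCGC, TTTCCCGC, TTTGCCGC or TTTCGCGC) were in 4 members (4.44%), 3.25% of ranked genes and 1.91% of all. The Sox motif ACAATG was in 8.89%, 6.31% and 11%, the octamer ATGCAAAT in 2.22%, 1.39% and 1.61%, the E-box CACGTG in 7.78%, 8.45% and 6.05%, TGACGTCA in 3.33%, 2.83% and 1.62% and TATAAA in 6.67%, 7.27% and 13.0%. Motifs may overlap each other, and a match is a description of letters only. At least 10 CpG were found in 53.3% of the members' promoters, 71.7% of those of ranked genes and 38.2% of all, and the median G+C was 57.8%, 59.6% and 52.0%.

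Promoters of a tight junction, a meiotic and a replication gene are shown to set side by side members of 3 different roles, with motif letters in capitals. That of Cldn6 (chr17:23679115-23679364, plus strand) has GC boxes and the TGACGTCA motif. That of Smc1b (chr15:85131958-85132207, minus strand) has CCAAT and 25 CpG, against 9 in Cldn6. That of Orc1 (chr4:108579204-108579453, plus strand) has E2F, CCAAT and GC box letters.
Cldn6: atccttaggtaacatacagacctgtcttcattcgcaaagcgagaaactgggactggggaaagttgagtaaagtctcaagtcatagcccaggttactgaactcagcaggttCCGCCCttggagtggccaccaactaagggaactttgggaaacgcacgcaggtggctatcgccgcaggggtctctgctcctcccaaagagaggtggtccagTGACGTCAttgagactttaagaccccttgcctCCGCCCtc
Smc1b: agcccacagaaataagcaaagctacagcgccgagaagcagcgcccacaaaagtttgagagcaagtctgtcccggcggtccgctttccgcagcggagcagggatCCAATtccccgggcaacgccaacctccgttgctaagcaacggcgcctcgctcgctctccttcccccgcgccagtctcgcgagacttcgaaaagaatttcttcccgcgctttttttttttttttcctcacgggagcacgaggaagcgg
Orc1: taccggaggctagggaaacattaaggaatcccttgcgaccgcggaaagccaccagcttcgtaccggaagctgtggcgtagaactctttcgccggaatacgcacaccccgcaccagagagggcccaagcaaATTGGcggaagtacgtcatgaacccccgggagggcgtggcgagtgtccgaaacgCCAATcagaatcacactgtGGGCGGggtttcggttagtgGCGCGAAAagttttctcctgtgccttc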

How the data were processed

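The deposited intensity values are processed signals of Agilent Feature Extraction 9.5.3.1, with background already subtracted, per the file headers. Deposited flags mark spots that are well above background, saturated or outliers. Outlier spots were left out, replicate spots averaged as log2 signal, and each array's 75th percentile subtracted. Spots well above background were 58.4% to 80.0% of an array, and the number of arrays limits the precision. Probe positions are in mm7; names came from a RefSeq table (GRCm38.p6). Tests used limma 3.58.1 in R 4.3.3 with Benjamini-Hochberg adjustment over all probes well above background on at least 1 array, in a model of 4 classes (8 residual degrees of freedom) or 8 groups (4), tested on simulated data. The members and lists were chosen with earlier results of these data known. Named genes are the 20 members with the highest score, members of the lists, the 5 on each side of the threshold, the largest differences that passed, the 5 lowest and highest SD over lines and members whose other probes were not above MEF; other members were named after their values were seen. Alternatives were other background correction, scaling, filters, slide and clone blocks, the 8-group model, leaving out lines, and other forms of the rule. Clone numbers did not pair the lines: their differences correlated between -0.15 and 0.22. Results for a few of the members and list genes that this rule would name are not reported here.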

Additional observations from a re-analysis of the deposited data

Results flagged for a closer look

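In 11 members 1 of the 9 iPS lines stood apart from the other 8, with a gap above the 95% critical value of Dixon's ratio for 9 values; chance flags about 5% of such groups. The 11 are 7.33% of the 150, against 8.73% of all ranked genes, and the line values were among those the rule used. Lower than all other lines were 1110020A21Rik in purmorphamine line 2 (-3.61, others -1.65 to -0.31), Fxyd4, a regulator of the sodium pump, in oxysterol line 1 (-3.72, others -1.29 to 0.76), Tmem131l in tail-tip line 2 (-4.32, others -0.88 to 0.81), Arhgef15, a guanine nucleotide exchange factor, in tail-tip line 2 (-4.48, others -2.11 to -0.42), and AK089570 (-0.26, others 1.09 to 2.31) and AK080804 (-0.0522, others 1.5 to 2.85) in oxysterol line 1. Higher than all other lines were Actl10 in Bmi1-Oct4 line 2 (0.0775, others -1.58 to -0.91), Acsl6, a fatty acid activating enzyme, in the Shh line (0.13, others -2.30 to -1.11), Olfr50, an olfactory receptor, in oxysterol line 1 (-0.54, others -3.30 to -2.0), Lin28b in tail-tip line 2 (-2.84, others -4.05 to -3.46) and NAP031516-1 in oxysterol line 2 (2.46, others -0.59 to 0.76). Oxysterol line 1 and tail-tip line 2 account for 7 of the 11.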

How the results depend on the processing

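The list itself depended on the processing. With normexp background (offset 50) 66 of the 150 members stayed, with the mean of the 11 arrays in place of the lowest 77, without the spheres 42, and with dim MEF signals raised to the floor of the array 95, an alternative chosen after seeing the data. Quantile scaling kept 133 and the rule without 1 line 137 to 148. Of the tests, spheres minus iPS lines gave 28 called members, 22 to 33 under the alternatives that kept all slides (24 to 31 when 1 line was left out) and 5 within the slide of the spheres, chosen after seeing the data. Over all probes that comparison called 911 higher and 1823 lower, against 1524 and 1734 with normexp. Spheres minus Bmi1-Oct4 lines gave 19, from 4 to 19 when 1 line was left out (7 without Bmi1-Oct4 line 1, 4 without line 2, 6 without either purmorphamine line, 11 without either tail-tip line), and 6 with clone number as a replicate block, which the pairing check does not justify; slide as a fixed block could not be fitted there or for Bmi1-Oct4 minus hedgehog-activator lines. The comparisons with no member called stayed at 0 members in all alternatives run, though with no filter 73 probes of the whole array were higher and 3470 lower in Bmi1-Oct4 than in hedgehog-activator lines; no called member changed direction. The cause of these shifts was not tested. Dim MEF signals limit 118 of the 150 folds to bounds.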

Other observations

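Dppa2, an early embryonic chromatin factor just outside the 150, scored 3.82, with -1.45 in the spheres, 1.32 in ES, 1.91 ± 0.34 (SD, n = 9) in the iPS lines and -5.27, well above background, in MEF. In the list of Polycomb repressive complex 1, 6 of 17 ranked genes scored at least 1, against 11.2% of all ranked genes, with a median of -0.21. They were Rybp (2.68, not well above background in MEF), Pcgf5 (2.27), Rnf2 (2.22), Cbx7 (1.79), Pcgf2 (1.38) and Pcgf6 (1.27). The only Bmi1 probe that could be ranked scored -3.62, and the other was well above background on 7 of the 12 arrays. The score is the value that chose the members, so this share carries no test.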
